A study of Mus with 17 samples.

Results

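Gluconeogenesis makes new glucose and glycogen metabolism stores and releases it, and 9 liver genes of these routes are described here. They are core enzymes and phosphatase subunits given by name, by a rule that uses no measured value: Pcx, Pck1, Fbp1 and G6pc of gluconeogenesis, and Gys2, Gbe1, Pygl, Ppp1r3b and Ppp1r3c of glycogen synthesis, branching and breakdown. The choice was made with earlier results of these data known. All 9 were among the 24937 genes with a value and passed the filter on low counts that left 13204 genes for testing. RNA of whole liver had been sequenced from male mice of the strain C57BL6/JBomTac, and each of the 17 libraries was taken as 1 mouse. For 52 weeks, 8 of them were kept on a western diet with 42 g/L fructose in their drinking water, which the labels give as a model of advanced fatty liver disease. The remaining 9, matched in age, were kept on chow and plain water. The labels name no engineered allele in either group, and both were fasted overnight before they were killed, so every value below is from a fasted liver. The treatment entry of the labels set the groups, since the source entry reads western diet for all 17 mice.

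The liver holds blood glucose up during a fast, first by breaking down glycogen and then by building glucose from lactate, amino acids and glycerol. Pyruvate carboxylase and phosphoenolpyruvate carboxykinase lift pyruvate past the irreversible step of glycolysis, fructose bisphosphatase reverses the phosphofructokinase step, and glucose-6-phosphatase releases free glucose. Glucagon, glucocorticoids and fasting raise transcription of Pck1 and G6pc and insulin lowers it, whereas glycogen synthase and glycogen phosphorylase are set largely by phosphorylation, which RNA does not show.

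Each library held between 3604212 and 9071908.5 counts, and the 9 genes had 394 to 15603 counts in any library, so counting error was small beside the spread between mice. Levels are in CPM, counts per library total after that total was scaled by edgeR's TMM factors, and are not divided by transcript length, so they are compared between mice and not between genes. In all, 3 libraries stood apart in ways that touch these genes. Western diet replicate 3 had the highest Pck1 and G6pc of its diet by a wide margin. It also had the highest sum of periportal hepatocyte markers of its diet, 7464 CPM where the remaining 7 held 3672 to 5590 CPM. Its bile duct markers were the lowest of its diet at 196 CPM, where the remaining 7 held 331 to 517 CPM, and so were its stellate cell and fibroblast markers at 662 CPM, where they held 767 to 1221 CPM. Its macrophage markers were the highest of its diet at 1424 CPM, where the remaining 7 held 912 to 1367 CPM. The part of these cell markers in its Pck1 and G6pc was not tested. Western diet replicate 5 and chow replicate 2 carried transcripts of pancreatic acinar cells, with summed levels of 12 acinar markers of 5178 and 16042 CPM, where the medians were 231 CPM on western diet and 256 CPM on chow. Leaving both out changed no call on the 9 genes. Values without them are given for Pck1, G6pc and Pcx. In RNA of whole liver, fewer hepatocytes and less RNA per hepatocyte cannot be told apart.

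After western diet, transcripts for the cytosolic carboxykinase of gluconeogenesis and for liver glycogen synthase were lower and that for the glycogen branching enzyme was higher, while the remaining gluconeogenic enzymes did not pass the test. Pck1 fell 1.59-fold, Gys2 fell 1.498-fold and Ppp1r3c, a glycogen-targeting phosphatase subunit, fell 1.496-fold, while Gbe1 rose 1.43-fold (n = 8 and 9). The other 5 genes, Pcx, Fbp1, G6pc, Pygl and Ppp1r3b, did not pass. Thus 1 of the 9 genes rose, 11.1%, where 24.8% of all tested genes rose. The test was edgeR's quasi-likelihood test throughout, and a gene was called at a Benjamini-Hochberg p under 0.05 over all tested genes. Another 3 of the 9 fell, 33.3%, where 23.6% of all tested genes fell. In all, 44.4% of the 9 genes changed, near the 48.4% of all tested genes that did. When library totals were left unscaled, 2 of the 9 rose and 3 fell, and calls over all genes moved to 4485 rises and 1615 falls, in place of 3271 and 3122. With scaled totals the median log2 difference of the 9 genes was −0.17, beside −0.0091 over all tested genes. Of the 9 genes only Gys2 had diets whose libraries did not overlap, where 12% of all tested genes had such a gap, 6.98% higher and 5.05% lower on western diet.

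**Figure D1:**
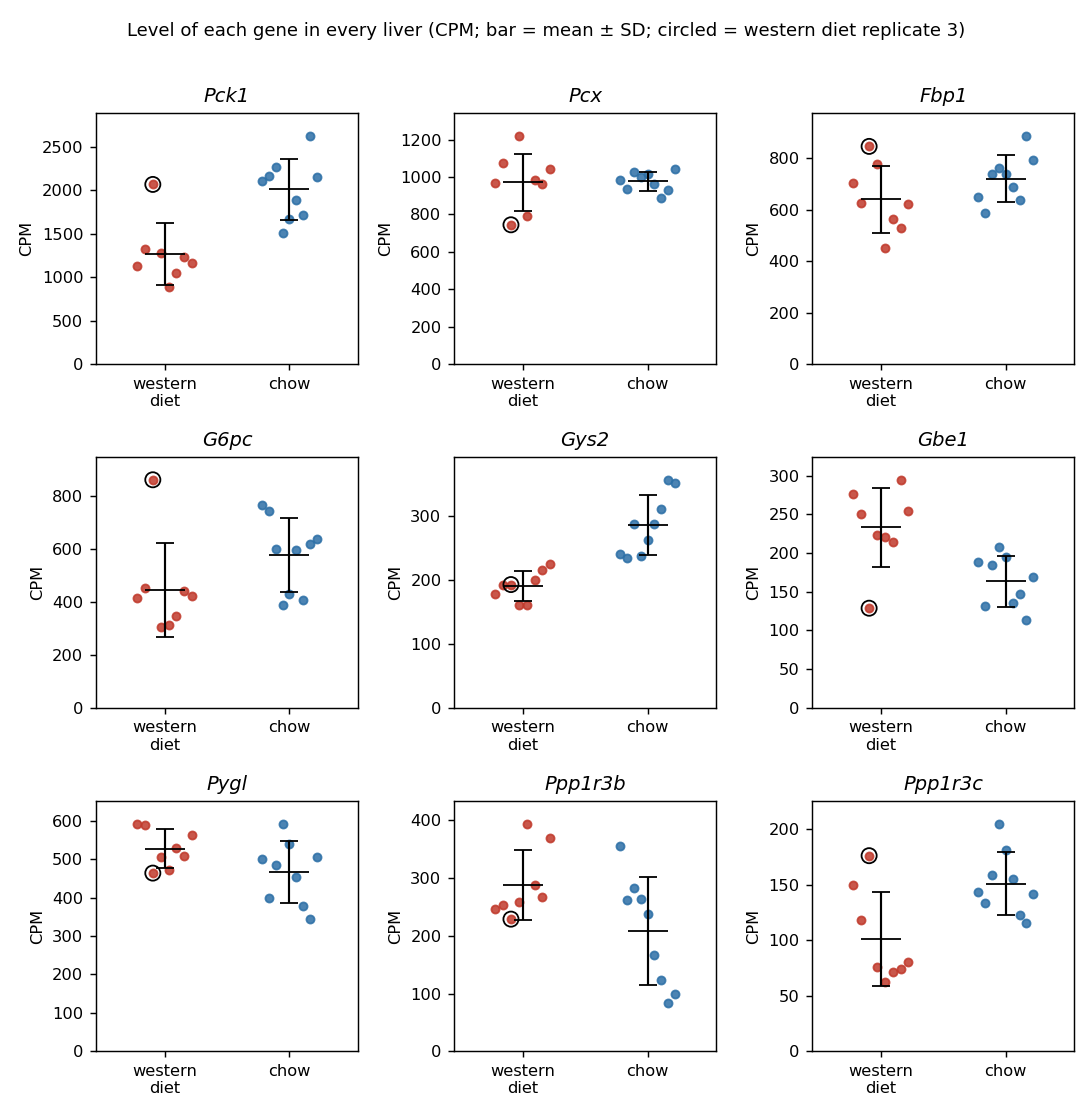
Level of each of the 9 genes in every liver, in CPM on a linear axis from 0, western diet left of chow; each point is 1 mouse, bars are mean ± SD (n = 8 and 9) and the circle marks western diet replicate 3. Gys2 separates the diets completely, and Pck1 and Gbe1 do so but for the circled liver.

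Pyruvate carboxylase, encoded by Pcx at chromosome 19:4510472-4621752 (GRCm38.p6), makes oxaloacetate from pyruvate inside mitochondria. Its level was 744 CPM at the lowest, 975 at the median and 1219 at the highest in western diet livers, against 888, 985 and 1040.3 CPM in chow livers. Chow livers lay wholly inside the western diet range, and western diet livers spread more widely, with a coefficient of variation of 15.6% against 5.16% in chow livers. The log2 difference was −0.0056 ± 0.084 (SE, adjusted p = 0.963), and it changed sign under 2 other settings and when any of 7 libraries was left out singly. The annotation places part of Lrfn4 over Pcx, and Lrfn4 averaged 4.68 CPM on western diet and 5.17 CPM on chow, where Pcx averaged 972 and 976 CPM.

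Phosphoenolpyruvate carboxykinase of the cytosol, encoded by Pck1 at chromosome 2:173153073-173159274, turns oxaloacetate into phosphoenolpyruvate and is a transcript often measured as a readout of gluconeogenic control. Western diet livers held 1129.7, 1326, 2069.6, 1280.5, 887, 1049, 1234 and 1167 CPM in replicates 1 to 8, and chow livers held 2113, 2171, 2272, 1507, 1667, 1895, 1716, 2627 and 2158 CPM in replicates 1 to 9. All western diet livers but replicate 3 lay below every chow liver, and replicate 3 lay in the middle of the chow range. The means were 1268 ± 352 CPM in western diet livers and 2014 ± 350 CPM in chow livers (SD, n = 8 and 9). The log2 difference was −0.67 ± 0.14 (SE, adjusted p = 6.75e-04), and 18.3% of tested genes differed by more in size. Without western diet replicate 3 it was −0.81 (adjusted p = 1.16e-05), and without the 2 libraries with pancreatic transcripts −0.59 (adjusted p = 0.00265).

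Fructose-1,6-bisphosphatase, encoded by Fbp1 at chromosome 13:62864753-62888298, yields fructose 6-phosphate. Its level was 449.8 CPM at the lowest, 624 at the median and 846 at the highest in western diet livers, against 589, 738 and 886 CPM in chow livers. The ranges overlapped broadly: 3 western diet livers lay below every chow liver, and 1 chow liver lay above every western diet liver. The log2 difference was −0.17 ± 0.11 (SE, adjusted p = 0.215), and it did not pass without western diet replicate 3 either (−0.24, adjusted p = 0.0655).

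The catalytic subunit of glucose-6-phosphatase, encoded by G6pc at chromosome 11:101367716-101377903, frees glucose in the endoplasmic reticulum and serves both routes, since glycogen breakdown also ends in glucose 6-phosphate. Western diet livers held 413, 453, 861, 306, 312, 348, 442 and 421 CPM in replicates 1 to 8, and chow livers held 767, 742, 599.6, 388, 431, 595, 406, 618 and 639 CPM in replicates 1 to 9. Replicate 3 on western diet exceeded every other liver of either diet, and the remaining 7 western diet livers, at 306 to 453 CPM, lay in and below the lower end of the chow range. The means were 444 ± 178 CPM in western diet livers and 576 ± 140 CPM in chow livers (SD, n = 8 and 9). The log2 difference of −0.38 ± 0.19 (SE, adjusted p = 0.121) did not pass. One library decided this call: without western diet replicate 3 the difference was −0.58 (adjusted p = 0.00270), and then 4 of the 9 genes fell in place of 3. Without the 2 libraries with pancreatic transcripts it was −0.26 (adjusted p = 0.315).

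**Figure D2:**
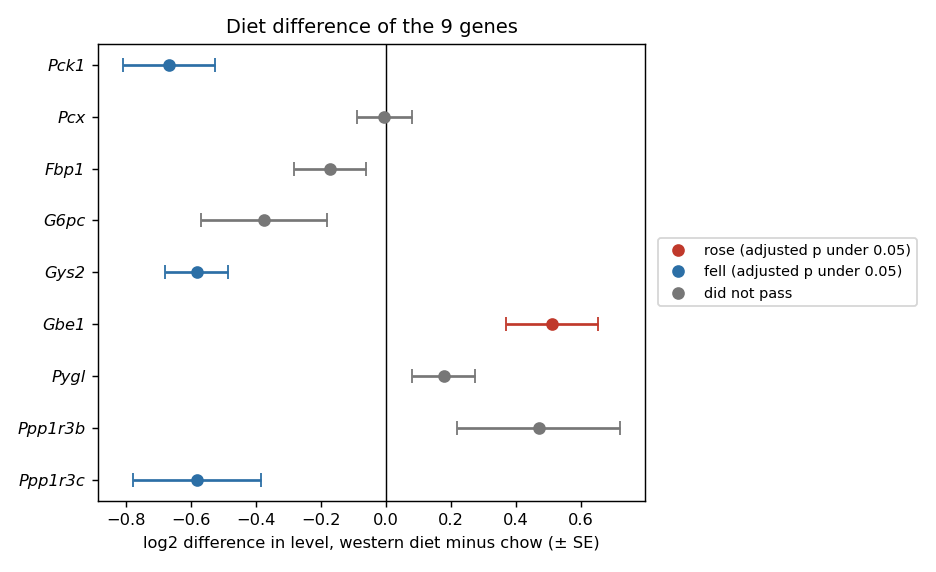
Log2 difference in level of each of the 9 genes, western diet minus chow, with bars of ± 1 SE from edgeR's fit; colour gives the call at an adjusted p under 0.05. Pck1, Gys2 and Ppp1r3c lie below 0 and Gbe1 above it, while Pcx sits at −0.0056.

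Glycogen synthase of the liver, encoded by Gys2 at chromosome 6:142422612-142473130, adds glucose to the glycogen chain. Western diet livers held 178, 192, 192, 160.3, 161, 199, 215 and 225 CPM in replicates 1 to 8, and chow livers held 240.1, 234, 287, 238, 262, 287, 311, 356 and 351 CPM in replicates 1 to 9. Every western diet liver lay below every chow liver, with replicate 3 at the median of its diet. The means were 190.2 ± 23.2 CPM in western diet livers and 285 ± 46.7 CPM in chow livers (SD, n = 8 and 9), a log2 difference of −0.58 ± 0.097 (SE, adjusted p = 6.20e-05). Over the 17 fits that left out 1 library it stayed between −0.62 and −0.54.

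The glycogen branching enzyme, encoded by Gbe1 at chromosome 16:70313949-70569720, moves chain ends to make the branches that keep glycogen soluble. Western diet livers held 277, 250.2, 129, 224, 221, 215, 295 and 254 CPM in replicates 1 to 8, and chow livers held 189, 131, 185, 208, 195, 135, 147, 114 and 169 CPM in replicates 1 to 9. All western diet livers but replicate 3 lay above every chow liver, and replicate 3, low here, lay near the bottom of the chow range. The means were 233 ± 50.6 CPM in western diet livers and 163 ± 33.0 CPM in chow livers (SD, n = 8 and 9), a log2 difference of 0.51 ± 0.14 (SE, adjusted p = 0.00626). Without replicate 3 it was 0.60 (adjusted p = 2.90e-04). Gbe1 and Gys2, which work on the same growing chain, thus changed in opposite directions.

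Glycogen phosphorylase of the liver, encoded by Pygl at chromosome 12:70190815-70227683, cuts glucose 1-phosphate from glycogen. Its level was 464 CPM at the lowest, 518 at the median and 593 at the highest in western diet livers, against 345, 484 and 591 CPM in chow livers. Of the 8 western diet livers 7 lay inside the chow range, and 4 chow livers lay below every western diet liver. The log2 difference was 0.18 ± 0.097 (SE, adjusted p = 0.137). With unscaled library totals it was 0.30 and passed (adjusted p = 0.0107), but that scaling moved the median of all tested genes to 0.12.

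Ppp1r3b and Ppp1r3c encode subunits that bring protein phosphatase 1 to glycogen, where it removes phosphate from glycogen synthase and phosphorylase. For Ppp1r3b, at chromosome 8:35375694-35388139, western diet livers held 245, 254, 229, 257, 394, 288, 267 and 369 CPM in replicates 1 to 8, and chow livers held 355, 262, 282, 263, 237, 166, 124, 83.1 and 99.6 CPM in replicates 1 to 9. Chow livers differed 4.28-fold among themselves, and 4 of them lay below every western diet liver. The means were 288 ± 60.6 CPM in western diet livers and 208 ± 93.6 CPM in chow livers (SD, n = 8 and 9). The log2 difference of 0.47 ± 0.25 (SE, adjusted p = 0.133) did not pass. It passed without chow replicate 1 (0.62, adjusted p = 0.0446) and with the level of the clock gene Dbp, centred within each diet, as a covariate (0.57, adjusted p = 0.0407).

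For Ppp1r3c, at chromosome 19:36731731-36736604, western diet livers held 150.2, 118, 176, 75.8, 62.7, 71.7, 73.8 and 80.9 CPM in replicates 1 to 8, and chow livers held 143, 134, 159, 205, 181, 156, 123, 116 and 142 CPM in replicates 1 to 9. On western diet, 5 livers lay below every chow liver and the other 3, replicate 3 among them, lay within the chow range. The means were 101 ± 42.2 CPM in western diet livers and 151 ± 28.3 CPM in chow livers (SD, n = 8 and 9), a log2 difference of −0.58 ± 0.20 (SE, adjusted p = 0.0212). Without western diet replicate 3 it was −0.74 (adjusted p = 0.00159), and over all fits that left out 1 library the highest adjusted p was 0.0434.

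Ratios of counts within a library do not depend on how libraries are scaled, and they describe how the genes shifted against each other. They are not ratios of molecules, since transcript lengths were not used, and they were not tested. The Pygl count over the Gys2 count was 2.37 to 3.33 with a median of 2.79 in western diet livers, against 0.969 to 2.49 with a median of 1.68 in chow livers. Here 6 of the 8 western diet livers lay above all chow livers. The Gbe1 count over the Gys2 count had a median of 1.34 in western diet livers and 0.561 in chow livers, and all western diet livers but replicate 3 lay above all chow livers. The Ppp1r3b count over the Ppp1r3c count had a median of 3.51 in western diet livers and 1.28 in chow livers, with 5 western diet livers above all chow livers. In gluconeogenesis the Pcx count over the Pck1 count had a median of 0.873 in western diet livers and 0.482 in chow livers. Western diet replicate 3, at 0.360, stood among the chow livers, and the other 7 stood above them. The G6pc count over the Pck1 count had a median of 0.355 in western diet livers and 0.264 in chow livers, and the diets overlapped broadly.

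**Figure D3:**
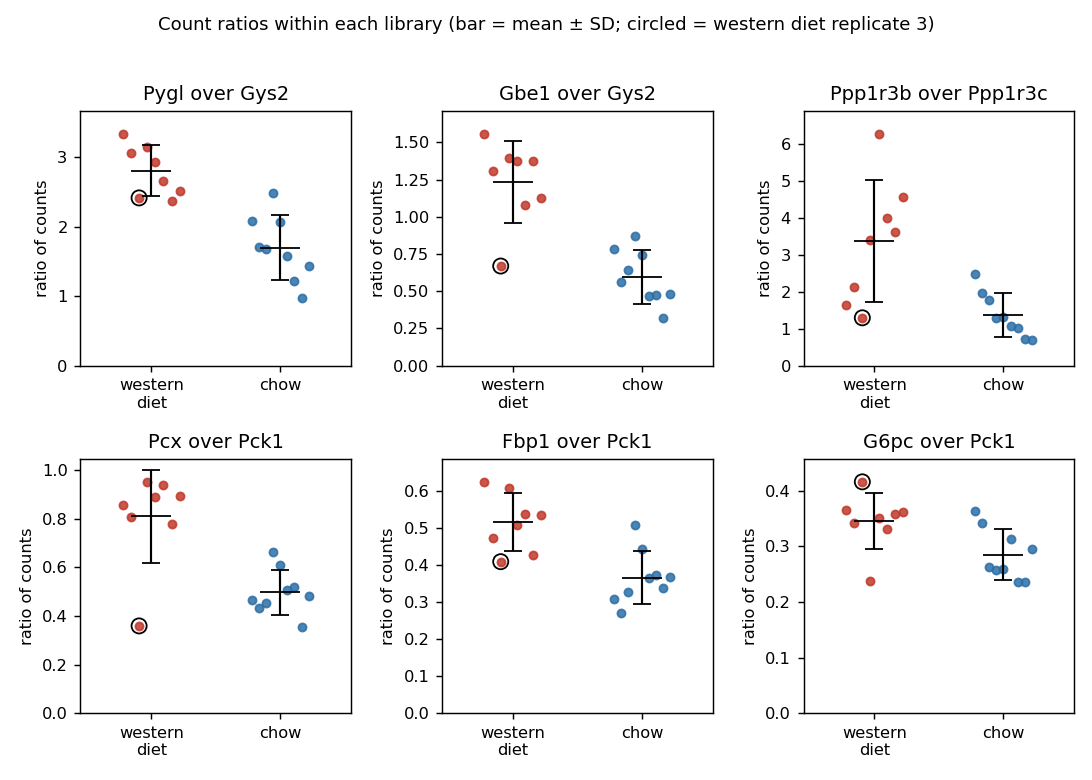
Ratio of the counts of 2 genes within each library, on linear axes from 0, western diet left of chow; each point is 1 mouse, bars are mean ± SD (n = 8 and 9) and the circle marks western diet replicate 3. The Gbe1 over Gys2 and Pcx over Pck1 ratios separate the diets but for the circled liver, while G6pc over Pck1 overlaps.

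Pairs of genes were compared across mice within each diet, in 24 relations that were adjusted together. None passed the adjustment, and 3 had an unadjusted exact p under 0.05 for Pearson's r. Pck1 and G6pc had the highest r of either diet: Pearson's r was 0.883 in western diet livers (exact permutation p = 0.0155, adjusted p = 0.179, n = 8) and 0.794 in chow livers (exact permutation p = 0.0121, adjusted p = 0.179, n = 9). Spearman's rho was 0.643 in western diet livers (exact permutation p = 0.0962) and 0.683 in chow livers (exact permutation p = 0.0503). Without the 2 livers farthest from the median of G6pc, r was 0.969 in western diet livers (n = 6) and 0.577 in chow livers (exact permutation p = 0.170, n = 7).

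Within western diet livers Ppp1r3b and Ppp1r3c ran in opposite directions, with r of −0.700 (exact permutation p = 0.0534) and rho of −0.857 (exact permutation p = 0.0107, adjusted p = 0.166, n = 8). In chow livers r was 0.573 (exact permutation p = 0.109) and rho 0.6 (exact permutation p = 0.0968, n = 9). Without the 2 livers farthest from the median of Ppp1r3c, r was −0.520 in western diet livers (exact permutation p = 0.329, n = 6). In chow livers it was then 0.578 (exact permutation p = 0.181, n = 7). Whether the relation differs between the diets was not tested.

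Dbp, an output gene of the circadian clock whose level swings over the day, served as a marker of clock phase, since the labels give no hour of death. It ranged from 10.8 to 88.8 CPM in western diet livers and from 8.25 to 203 CPM in chow livers. In chow livers Ppp1r3b was lower where Dbp was higher, with r of −0.762 (exact permutation p = 0.0223, adjusted p = 0.179) and rho of −0.8 (exact permutation p = 0.0138, n = 9), and r was −0.760 without the 2 livers farthest from the median of Dbp. Gys2 ran the other way, with r of 0.653 in chow livers (exact permutation p = 0.0636, adjusted p = 0.260, n = 9). In western diet livers the same relations had r of 0.393 for Ppp1r3b (exact permutation p = 0.337) and 0.530 for Gys2 (exact permutation p = 0.169, n = 8). With Dbp, centred within each diet, as a covariate, Gys2, Pck1, Gbe1 and Ppp1r3c kept their calls. Such a covariate cannot take up a difference in clock phase between the diets. The part of clock phase in the spread of Ppp1r3b was not tested further.

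**Figure D4:**
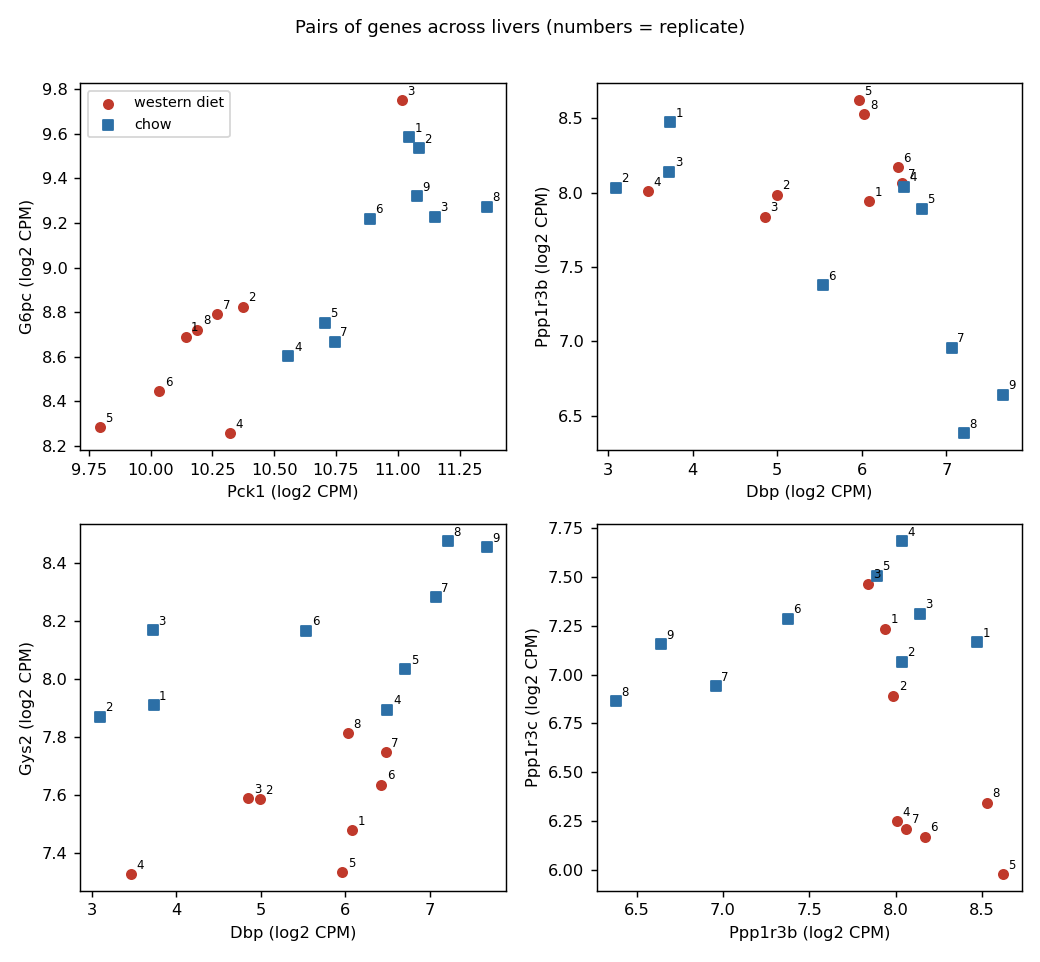
Pairs of genes across livers in log2 CPM, red circles for western diet and blue squares for chow, with the replicate number at each point: G6pc by Pck1, Ppp1r3b by Dbp, Gys2 by Dbp and Ppp1r3c by Ppp1r3b. Western diet replicate 3 sits among the chow livers for Pck1, the chow livers with the highest Dbp have the lowest Ppp1r3b, and the western diet livers with the highest Ppp1r3c have low Ppp1r3b.

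The genes whose levels followed each member most closely over the 17 livers were ranked by Pearson's r after the mean of each diet was removed, over 13020 genes, as a description with no test. These points share library depth and the same mice. Pck1 was followed most closely by Prkar1a, a regulatory subunit of protein kinase A (r = 0.85), then by G6pc (0.85) and Mrpl15, a mitochondrial ribosomal protein (0.84). G6pc was followed by Tat, the glucocorticoid-induced tyrosine aminotransferase (0.87), by Slc25a25, a mitochondrial carrier of adenine nucleotides (0.86), and by Pck1 (0.85). Western diet replicate 3 was the highest of its diet in Mrpl15, Tat and Slc25a25 too, and its 1803 CPM of Tat stood beside 479.5 to 826 CPM in the remaining 7. That shared extreme follows in part from the ranking, which used the same livers. With Pck1 or G6pc, Mrpl15, Tat and Slc25a25 had r of 0.94, 0.92 and 0.98 in western diet livers, against 0.66, 0.86 and 0.74 in chow livers.

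Fbp1 was followed by 1300017J02Rik (0.95), by F12, coagulation factor XII (0.91), and by Apof, an apolipoprotein (0.91). Pcx was followed by Gpr4, a proton-sensing receptor (0.85), by Krt8, a keratin (0.83), and by Pid1 (0.81). For Pcx these values came mainly from western diet livers, with r of 0.93, 0.88 and 0.93 there, against 0.35, 0.50 and 0.17 in chow livers. Among the glycogen genes, Gys2 was followed by the transcription factor Klf9 (0.83), by the coactivator Ppargc1b (0.83) and by Susd4 (0.81). Gbe1 was followed by the carboxylesterases Ces1g (0.93) and Ces2e (0.90) and by Rarg, a retinoic acid receptor (0.93). Pygl was followed by Galm, the galactose mutarotase (0.88), by Aplp2 (0.87) and by Abcb11, the bile salt export pump (0.87). Among the genes reported here Ppp1r3b was followed by Mta2 (0.84) and by Plekha1 (0.84), and Ppp1r3c by Gchfr, which regulates GTP cyclohydrolase (0.91), by Ahcy, adenosylhomocysteinase (0.89), and by Pigw (0.87). For Ppp1r3c these had r of 0.96, 0.93 and 0.97 in western diet livers, against 0.71, 0.79 and 0.47 in chow livers. Gbe1 and Pygl followed each other with r of 0.75. Gys2 and Ppp1r3b had r of −0.69, made up of 0.032 in western diet livers and −0.91 in chow livers, a difference that was not tested.

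The wider gene lists show where these 9 genes stood in their routes, and over all tested genes 24.8% rose and 23.6% fell. Of 33 tested genes of gluconeogenesis and substrate entry other than the members, 3 rose, 8 fell and 22 did not pass, with a median log2 difference of −0.050. With unscaled library totals the split was 8 and 7. Without western diet replicate 5 and chow replicate 2, 6 rose and 8 fell, and without western diet replicate 5 alone 5 rose. Those that fell were led by Sdsl, a serine dehydratase relative (1.80-fold lower), Gk, glycerol kinase (1.74-fold lower, 308 ± 37.0 CPM on western diet and 534 ± 98.8 CPM on chow), and Gpd1, cytosolic glycerol-3-phosphate dehydrogenase (1.51-fold lower, 658 ± 97.6 CPM on western diet and 996 ± 124 CPM on chow). For Gk and Gpd1, which are among the enzymes by which glycerol enters the route, the libraries of the diets did not overlap. Pck2, the mitochondrial form of phosphoenolpyruvate carboxykinase, had a log2 difference of 0.28 ± 0.36 (SE, adjusted p = 0.539), Slc37a4, the glucose 6-phosphate transporter, −0.050, and Slc2a2, the liver glucose transporter, 0.16. None of these 3 passed. Pck2 did so without chow replicate 2, one of the libraries with pancreatic transcripts, at 0.88.

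In the list of glycolysis and pyruvate genes, 13 of 22 tested genes rose and 5 fell, with a median log2 difference of 0.34, beside −0.0091 over all tested genes, of which 24.8% rose and 23.6% fell. Pklr, the liver pyruvate kinase, rose 1.91-fold (341 ± 65.2 CPM on western diet, 179 ± 48.2 CPM on chow, adjusted p = 8.41e-05). Pfkfb1, which makes and breaks the activator of phosphofructokinase, rose 1.33-fold (adjusted p = 0.0365), a call that the loss of any 1 of 8 libraries ended. The hexokinases Hk2 and Hk3, low in hepatocytes and present in other cells, rose 3.69-fold and 2.95-fold, beside macrophage markers that rose as well; the part of other cells in these rises was not tested.

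Of 24 other tested glycogen genes, 5 rose, 6 fell and 13 did not pass, with a median log2 difference of −0.043, and the split was 8 and 5 with unscaled library totals. Among all tested genes 24.8% rose and 23.6% fell. Gyg, glycogenin, which primes the chain, rose 2.25-fold with no overlap (19.1 ± 2.09 CPM on western diet, 8.50 ± 1.14 CPM on chow, adjusted p = 1.40e-08). Pygb, the brain phosphorylase, rose 1.79-fold and Ugp2, which makes UDP-glucose, rose 1.30-fold. The part of other cell types in these rises was not tested. Gaa, the acid glucosidase that breaks down glycogen in lysosomes, fell 1.45-fold with no overlap (171 ± 19.1 CPM on western diet, 248 ± 22.8 CPM on chow), and Pgm5, a relative of phosphoglucomutase, fell 1.81-fold. Gys1, the muscle form of glycogen synthase, had a log2 difference of 0.29 (adjusted p = 0.117), which passed without chow replicate 2 at 0.43.

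**Figure D5:**
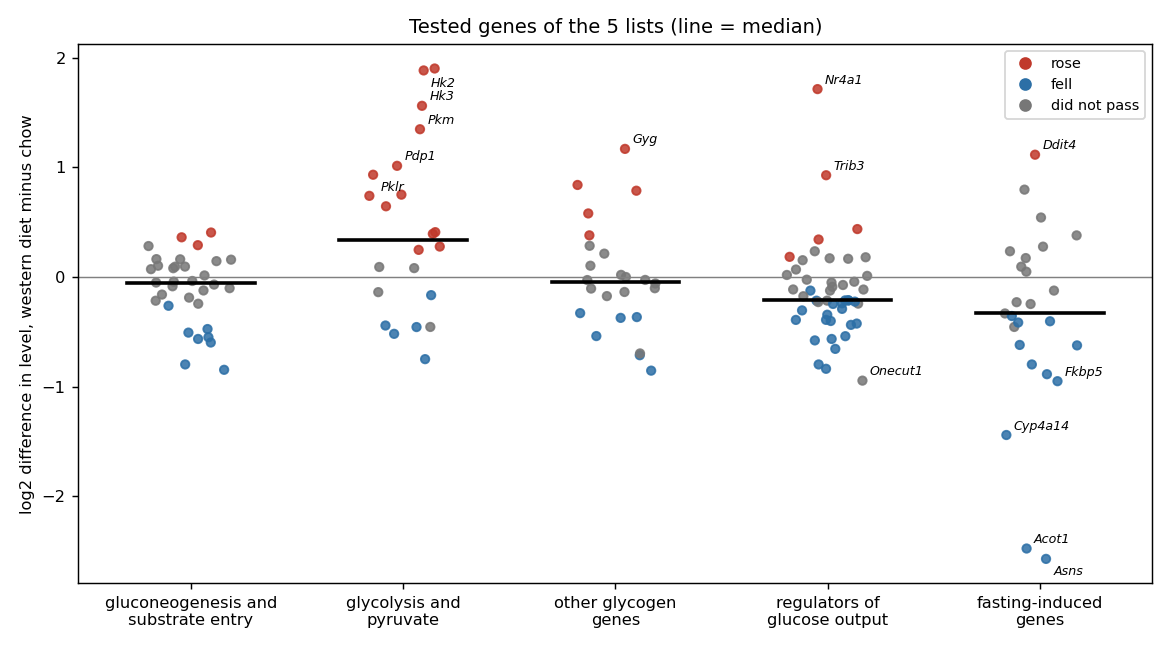
Log2 difference of every tested gene in 5 gene lists, western diet minus chow, with 1 point per gene, colour for the call at an adjusted p under 0.05 and a bar at each list's median. Glycolysis and pyruvate use has its median at 0.34, and the fasting-induced list has its median at −0.33.

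Among 48 tested regulators of hepatic glucose output, 5 rose, 22 fell and 21 did not pass, where 24.8% of all tested genes rose and 23.6% fell. The median log2 difference of the 48 was −0.21, and with unscaled library totals 8 of them rose and 12 fell. The number that rose was 3 without western diet replicate 4, 5 or 7 or chow replicate 4, 6 or 7. Gcgr, the glucagon receptor, fell 1.27-fold, Insr, the insulin receptor, 1.32-fold, and its adaptors Irs1 and Irs2 1.35-fold and 1.74-fold. The call of Irs1 was lost without any 1 of 6 libraries. Hnf4a, a nuclear receptor that holds up hepatocyte genes, fell 1.31-fold and Crtc2, a coactivator in the glucagon response, 1.16-fold, a call lost with unscaled totals and without any 1 of 7 libraries. Ppargc1b, a relative of Ppargc1a, fell 1.79-fold. Foxo1, the insulin-restrained transcription factor that acts on Pck1 and G6pc (0.17), Ppargc1a, its coactivator (0.24), and Nr3c1, the glucocorticoid receptor (−0.23), had log2 differences that did not pass, though Nr3c1 passed without chow replicate 1 (−0.28) or chow replicate 2 (−0.27). Nr4a1 rose 3.28-fold and Trib3 1.90-fold, and western diet replicate 3 held 94.1 CPM of Nr4a1 where the remaining 7 held 10.2 to 30.04 CPM. Without that library the log2 difference of Nr4a1 was 1.11 (adjusted p = 0.0230), in place of 1.71.

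Of 25 genes that fasting induces in liver, 1 rose, 11 fell and 13 did not pass, where 24.8% of all tested genes rose and 23.6% fell. The median log2 difference of the 25 was −0.33. Those with the largest falls were Asns, asparagine synthetase (5.94-fold lower), Acot1, an acyl-CoA thioesterase (5.56-fold lower), and Cyp4a14, a fatty acid hydroxylase (2.71-fold lower), and Angptl4, an inhibitor of lipoprotein lipase, fell 1.54-fold. Others known from fasted liver did not pass: the log2 differences were −0.45 for Pdk4, 0.54 for Igfbp1, −0.23 for Tat and −0.25 for Fgf21. Tat passed without western diet replicate 3, at −0.50. Igfbp1 passed with Dbp as a covariate (0.97, adjusted p = 0.0133) and was 1.14 without passing in limma-voom. Of the 25 genes 2 rose, in place of 1, without western diet replicate 1 or 3 or chow replicate 4 or 9. Of 17 clock output genes, 4 fell and 13 did not pass, a share of falls near the 23.6% of all tested genes. With Dbp as a covariate 2 rose and 8 fell, and without western diet replicate 5 and chow replicate 2, 1 rose and 5 fell. The largest falls were those of Tef, Cry2 and Hlf at −0.76, −0.67 and −0.63, while Dbp (−0.61) and Per1 (0.38) did not pass. Without chow replicate 9 Tef (−0.62, adjusted p = 0.0513) did not pass and Per1 did (0.57, adjusted p = 0.0354).

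Markers of cell types moved with the diet and are given beside these results. Over all tested genes 24.8% rose and 23.6% fell. Of 9 tested hepatocyte markers 2 fell and 7 did not pass, and their summed level was 11628 to 19459 CPM in western diet livers and 14926 to 20574 CPM in chow livers. Of 11 markers of periportal hepatocytes, the zone where gluconeogenesis is strongest, 5 fell and 6 did not pass, with sums of 3672 to 7464 CPM in western diet livers and 5921 to 7759 CPM in chow livers. Of 13 pericentral markers 5 rose and 3 fell. Their sums were 5126 to 8362 CPM in western diet livers (median 5795) and 5968 to 7272 CPM in chow livers (median 6659). All 8 macrophage markers rose, with sums of 912 to 1424 CPM in western diet livers and 367 to 626 CPM in chow livers. All 7 markers of stellate cells and fibroblasts also rose, with sums of 662 to 1221 CPM in western diet livers and 419 to 551 CPM in chow livers, as did all 6 of bile duct cells, with sums of 196 to 517 CPM in western diet livers and 72.7 to 134 CPM in chow livers. The part of cell composition in the fall of Pck1, Gys2 and Ppp1r3c and in the rise of Gbe1 was not tested. Kidney tubule also makes Pck1, G6pc and Fbp1, and its markers summed to at most 4.83 CPM in any liver, while those of skeletal muscle reached at most 28.9 CPM. Of 8 adipocyte markers 1 rose and 3 fell.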

How the data were processed

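Per the labels' protocols, RNA of frozen, pulverised liver was purified on columns, made into NEBNext Ultra libraries and read from both ends. The authors deposited expected counts per gene symbol, in steps of 0.5 and unscaled, and they were rounded for the fits. The tools, per the submitters' processing notes, were FastQC, MultiQC, STAR 2.4.1c and HOMER, with the assembly mm10; how duplicate reads, strand and annotation were handled is not given in the sources used here, so overlapping genes may share reads. Of 24940 genes, 3 had no value. A count of 0 allows up to 3 counts, 0.331 to 0.832 CPM, for counting error only. Each library was taken as 1 mouse, although the labels do not say so, and p-values measure the spread between libraries.

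Genes kept by filterByExpr (13204) were tested two-sided with edgeR 4.0.16 in R 4.3.3: TMM factors, robust dispersions (common dispersion 0.0360, a biological coefficient of variation of 19.0%), glmQLFit and glmQLFTest on diet, prior count 0.125, and Benjamini-Hochberg adjustment over all tested genes at 0.05. Western diet minus chow is the direction of each log2 difference. The step was first run on simulated counts. Relations across mice used log2 CPM with a prior count of 2 and exact permutation tests, two-sided, adjusted over 24 relations (Python 3.11.15, scipy 1.17.1). Positions are from RefSeq's gene table of GRCm38.p6, also called mm10, matched by symbol for 9 of 9 genes.

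The members and gene lists were chosen with earlier results of these data known. The text names all 9 members, a fixed set of genes of the routes, up to 3 genes of each list with the largest difference among those that passed, and for each member the 3 genes with the highest r. Certain genes that this rule covers are left out of the text. Other genes appear in counts alone. Replicate numbers follow the order of the labels and pair nothing. Alternatives were DESeq2 1.42.0, limma-voom 3.58.1, RLE factors, unscaled library totals, TMM with the 50 most abundant genes left out, other count filters, dispersions without robust estimation, a stricter threshold of 0.01, a test against a 1.5-fold change, counts doubled in place of rounding, Dbp as a covariate, 1 surrogate variable (sva 3.50.0), leaving out each of the 17 libraries, and leaving out the 2 libraries with pancreatic transcripts.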

Additional observations from a re-analysis of the deposited data

Results flagged for a closer look

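In 144 sets of values, 1 gene in the livers of 1 diet each, 18 held a value far from the others of their diet by Dixon's criterion. For normally distributed values chance gives about 1 in 20 sets, but CPM need not be normal. Mrpl15, Slc25a25, Rarg and Apof were named because they followed a member over these same livers. The 18 sets therefore cannot be set against that rate. Western diet replicate 3 accounted for 10 of them. It held 2069.6 CPM of Pck1 (887 to 1326 CPM in the other western diet livers), 861 CPM of G6pc (306 to 453 CPM), 51.7 CPM of Ppargc1a, 40.5 CPM of Irs2, 1803 CPM of Tat, 37.6 CPM of Sdsl, 94.1 CPM of Nr4a1, 71.4 CPM of Mrpl15 and 594 CPM of Slc25a25, each the highest of its diet. It also held 11.5 CPM of Rarg, the lowest of its diet. Chow replicate 2, which carried pancreatic transcripts, was the highest chow liver for Pck2 at 37.8 CPM, Gys1 at 12.3 CPM, Pygb at 22.1 CPM and Gyg at 11.2 CPM. The other values were 89.9 CPM of Irs1 in chow replicate 7, 29.1 CPM of Hk2 in western diet replicate 4, 544 CPM of Apof in chow replicate 8 and 741 CPM of Slc25a25 in chow replicate 9. Several of these genes followed each other across mice, so the values are not independent.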

How the results depend on the processing

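No paired analysis was possible because no label links a western diet mouse to a chow mouse. Pck1, Gys2 and Gbe1 kept direction and call under 13 of 14 settings and in all 17 fits that left out 1 library, where they ranged from −0.81 to −0.60, −0.62 to −0.54 and 0.46 to 0.60. The exception was the test against a 1.5-fold change, which called none of the 9 genes (0 rose, 0 fell) and 1108 genes rising and 195 falling overall. Its adjusted p was 0.655 for Pck1 (−0.67) and 1 for Gys2 (−0.58), Gbe1 (0.51) and Ppp1r3c (−0.58). Ppp1r3c (−0.58) also missed an adjusted p of 0.01 and ranged from −0.74 to −0.50 without single libraries. Fits without single libraries or the pair with pancreatic transcripts gave −0.58 to −0.26 for G6pc, 0.37 to 0.62 for Ppp1r3b, −0.090 to 0.020 for Slc37a4 and −0.059 to 0.041 for Pcx, whose direction was not settled. Unscaled library totals shifted the median of all genes to 0.12, left 1615 genes falling, and gave 0.12 for Pcx, 0.30 for Pygl and 0.081 for Slc37a4, with 2 of the 9 genes rising. Dbp as a covariate also made 2 rise (Ppp1r3b 0.57), as did the fit without chow replicate 1. Without western diet replicate 5 and chow replicate 2 Pcx was 0.028. Without the 2 farthest livers, 1 of 24 relations passed in place of 0, Pck1 with G6pc on western diet (r = 0.97, n = 6). Of the 63 other named genes, 44 changed call or direction under some setting. The causes were not tested. Depth did not limit the 9 genes, which had at least 394 counts in every library, but hour of death, liver histology, glycogen content and enzyme activity were not measured in these files.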
